A study of Mus musculus with 4 samples.

Results

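Autophagy genes code for the proteins that build a double membrane around cytoplasmic material and deliver it to the lysosome. The 38 genes described here were the mouse core autophagy genes and cargo receptors on a list of symbols, found by matching gene identifiers to those symbols in GENCODE, and were 38 of 50600 genes in the count files. The data were 4 RNA-seq libraries from primary cells of C57BL/6NJ mice, all of which carry the single label regulatory T cell. No gene deletion, transgene or treatment was listed, the sex was not collected, the age was unknown, and the 4 biosamples had 1 donor record between them. The labels name total RNA as the assay but cite a protocol for poly(A)-selected libraries together with one for the differentiation of CD4 T cells, and the count columns carry the words activated and mmTreg beside a mark of 0 h. No second group was analysed, so the genes were compared with each other within a library, and the libraries were compared as replicates 1 to 4. Levels are in TPM, an abundance per length of transcript scaled to the same total in each library, computed here from the deposited fragment counts and the exon length of each gene, and are given as mean ± SD over the 4 libraries (n = 4). Since the cells were measured in bulk, fewer cells that express a gene and less RNA per cell cannot be told apart.

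Autophagy begins when a kinase complex built on the scaffold FIP200 (Rb1cc1) activates a lipid kinase complex around Beclin 1, whose product, phosphatidylinositol 3-phosphate, recruits WIPI proteins to the growing membrane. ATG9 vesicles and ATG2 supply lipid, while ubiquitin-like conjugation enzymes couple the small proteins of the ATG8 family to phosphatidylethanolamine in the membrane, and ATG4 proteases trim ATG8 before coupling and release it afterwards. Cargo receptors bind both ATG8 and marked cargo, and in mouse T cells the pathway is known to be needed for survival and for regulatory T cell function.

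The libraries held 25573253, 62090744, 23000465 and 61943411 counted fragments in replicates 1 to 4. No library looked like a copy of another, as their counts differed by 6.71 to 29.3 times the sampling variance for each pair. All 10 T cell markers were at 1 TPM or more in every library, from Trac at 3435 ± 137 TPM to Cd247 at 326 ± 4.17 TPM. Of 12 regulatory T cell markers 9 were, and the list ran from Izumo1r at 167 ± 8.51 TPM to Itgae at 0.248 ± 0.133 TPM, with Foxp3, the factor that defines these cells, at 8.28 ± 0.867 TPM. The median of these 12 markers was low, at 6.53 ± 1.44 TPM. It was 1005 ± 13.7 TPM for the T cell markers and 8.96 ± 3.57 TPM for the B cell markers below. What share of the cells were regulatory T cells was not tested. The B cell markers, from Cd74 at 76.4 ± 40.2 TPM to Ebf1 at 0.154 ± 0.0914 TPM, reached 1 TPM in all libraries for 8 of 12 genes, and their summed level was 299, 170.1, 178 and 77.3 TPM in replicates 1 to 4, a 3.87-fold range. The macrophage and dendritic cell markers, from Cd68 at 11.7 ± 1.05 TPM to Xcr1 at 0.00841 ± 0.0168 TPM, did so for 4 of 13 genes with a sum of 17.7 to 22.1 TPM. The CD8 and natural killer cell markers, from Cd8b1 at 40.0 ± 2.55 TPM to Gzmk at 0.192 ± 0.145 TPM, did so for 5 of 10 genes with a sum of 80.7 to 100.2 TPM. Cd8a, in the same list as Cd8b1, was at only 0.794 ± 0.288 TPM.

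Of the 38 autophagy genes, 35 reached 1 TPM in all 4 libraries, and the others were Atg4c, Optn and Wipi1. Among all protein-coding genes 9948 of 21764 did so, or 45.7%. The median level of the 35 was 37.7 ± 1.28 TPM, against 33.2 ± 0.685 TPM for the 9948 protein-coding genes above the same floor, so the set was broadly expressed at an ordinary level for an expressed gene. Over all 38 genes the median was 34.1 ± 1.28 TPM, and their summed level lay between 1799 and 1849 TPM in the 4 libraries. The cargo receptor Sqstm1 and the ATG8 gene Gabarap stood alone above 100 TPM with this length, while Tax1bp1 and Wipi2 passed it too when the length of a single principal transcript was used. A further 11 genes had means of 50 to 100 TPM, 16 of 20 to 50 TPM, 5 of 5 to 20 TPM, 2 of 1 to 5 TPM and 2 below 1 TPM. Placed in order of mean level, 26 of the 37 neighbouring pairs had ranges that overlapped, and only 16 pairs kept their order in all 4 libraries. Among neighbours with no overlap the 5 largest steps were those from Gabarap to Ambra1 (2.86-fold), from Atg4a to Atg7 (1.68-fold), from Map1lc3a to Gabarapl1 (2.75-fold), from Gabarapl1 to Atg4c (2.12-fold) and from Optn to Wipi1 (4.28-fold).

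**Figure D1:**
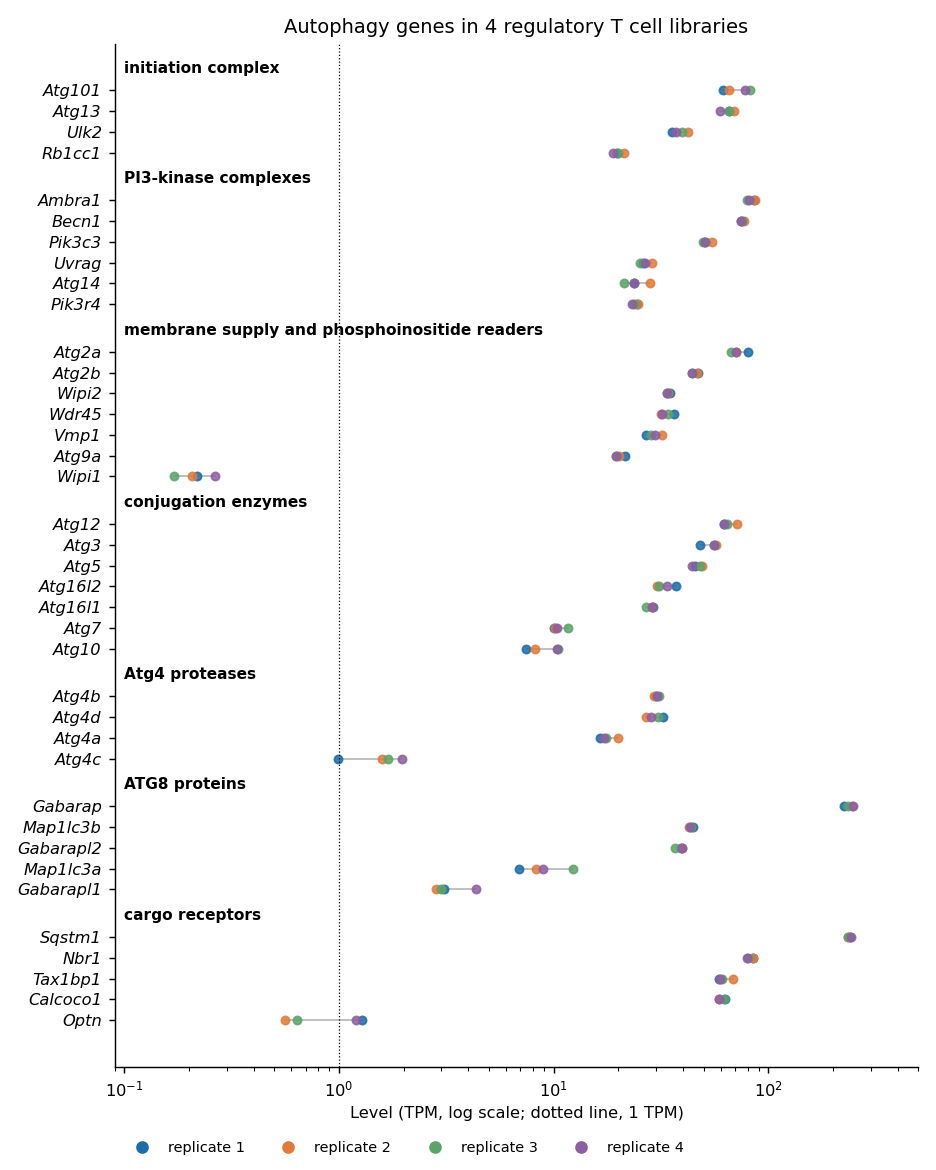
Level of each of the 38 autophagy genes in TPM on a log scale, grouped by step of the pathway, with 1 point for each of the 4 libraries and a grey line over their range. Gabarap and Sqstm1 lie at 224 to 246 TPM, most genes lie between 20 and 100 TPM, and Wipi1, Optn, Atg4c and Gabarapl1 form the low end.

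The level of a gene per unit length depends on which length is used. The deposited length counts every base that lies in an exon of any annotated transcript, which for genes with many annotated transcripts is much longer than a single mRNA. Levels were therefore also computed with the length of 1 principal transcript for each gene, an alternative chosen after the data were seen. The lengths of the other genes were replaced too and TPM was scaled again to the common total, which moves every level. Atg5, with 2352 bases under both lengths, was at 46.6 ± 2.29 TPM with all exons and 32.3 ± 1.59 TPM with the principal transcript. Changes in level between the lengths include this rescaling, while ratios of TPM between genes under a single length are free of it. For Wipi2 the principal transcript has 1959 bases against 10543 exon bases, for Map1lc3b 2532 against 7517, for Atg16l1 3130 against 9628 and for Tax1bp1 3285 against 9991. The levels of these 4 genes came out 3.73-fold, 2.06-fold, 2.13-fold and 2.11-fold higher with the principal transcript than with all exons, after the rescaling. The fragments divided were those counted over all exons, so any that lay outside the principal transcript raise these values. How many lay outside was not tested. The principal transcript of Atg12 is longer than its counted exons, at 4765 against 2492 bases, so dividing by it understates the level. The level was 23.6 ± 1.62 TPM by that length against 65.1 ± 4.49 TPM by all exons, a fall that includes the rescaling. Atg14, at 3729 against 3450 bases, and Atg101, at 1270 against 1230, also had principal transcripts longer than their counted exons. The highest and lowest genes did not depend on this choice: Sqstm1 and Gabarap were first and second, and Gabarapl1, Atg4c, Optn and Wipi1 were the last 4, under both lengths. The middle of the order did, with Tax1bp1 at rank 3 instead of 10 and Wipi2 at rank 4 instead of 19. The number of genes at 1 TPM or more in all libraries was 35 with either length.

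**Figure D2:**
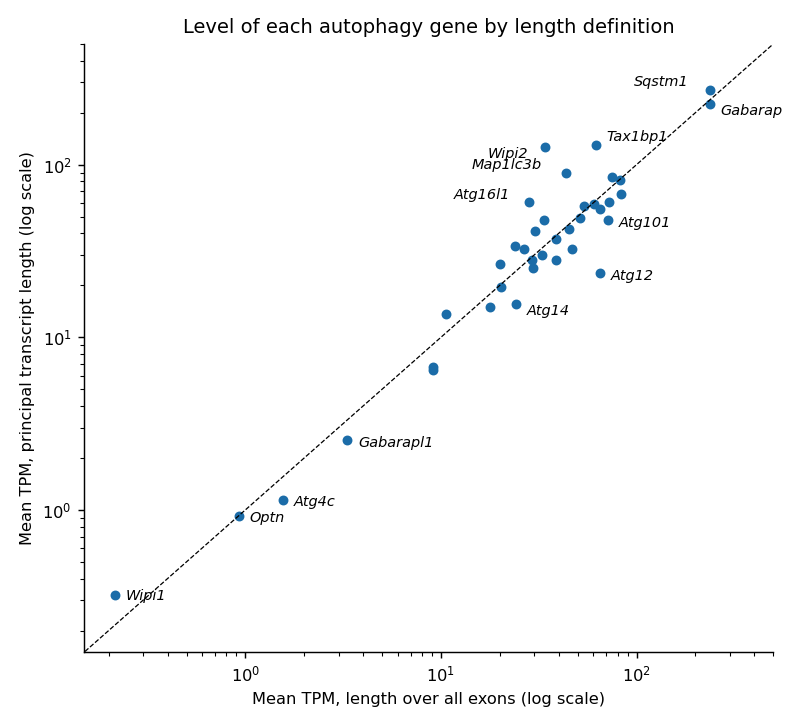
Mean level of each autophagy gene over the 4 libraries with the principal transcript length (vertical axis, TPM, log scale) against the level with the length over all exons (horizontal axis, TPM, log scale). The dashed line marks equal levels, and Atg5, whose length is the same under both definitions, lies below it through the rescaling to a common total. Wipi2, Tax1bp1, Map1lc3b and Atg16l1 lie above it by 2.06-fold to 3.73-fold and Atg12, whose transcript is longer than its counted exons, lies below it.

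The ATG8 genes differed from each other by up to 73.6 ± 12.5-fold, which was the level of Gabarap over that of Gabarapl1. In mammals this family has an LC3 branch, here Map1lc3a and Map1lc3b, and a GABARAP branch, here Gabarap, Gabarapl1 and Gabarapl2. Each is made with residues beyond a conserved glycine, which ATG4 removes so that the glycine can be joined to lipid. The ends of the 5 coding sequences are printed because this is the site at which the ATG4 proteases act on the ATG8 proteins. Each line gives the last 45 coding bases, stop codon included, of the principal transcript of GENCODE M21 on GRCm38, all on the plus strand, with the codon of the last glycine in capitals.
Gabarap, chr11:69994480-69994524: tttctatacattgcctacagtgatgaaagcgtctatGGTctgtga
Gabarapl1, chr6:129541123-129541167: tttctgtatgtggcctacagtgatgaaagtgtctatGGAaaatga
Gabarapl2, chr8:111952361-111952405: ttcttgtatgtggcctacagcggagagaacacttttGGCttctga
Map1lc3b, chr8:121596726-121596770: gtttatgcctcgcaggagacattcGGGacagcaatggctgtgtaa
Map1lc3a, chr2:155277593-155277637: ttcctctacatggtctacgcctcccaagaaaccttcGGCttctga

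Between the glycine codon and the stop there was 1 codon in 4 of the genes and 5 codons in Map1lc3b. The glycine is residue 116 of 117 in the 3 GABARAP branch proteins, 120 of 125 in the Map1lc3b product and 120 of 121 in the Map1lc3a product. Over the whole coding sequence, Map1lc3a and Map1lc3b were identical at 75.96% of aligned bases. Gabarap and Gabarapl1 were identical at 74.86%, Gabarapl1 and Gabarapl2 at 63.84% and Gabarap and Gabarapl2 at 61.86%, while pairs from different branches were identical at 51.42% to 54.70%. Some of these genes share sequence with other annotated genes. Of 50-base words sampled from the transcripts, 18.7% of those of Gabarapl2, 17.9% of those of Gabarapl1, 11.0% of those of Map1lc3b and 0 of those of Gabarap and Map1lc3a recurred in another gene in one orientation or the other. Fragments with several alignments were left out by the authors' counting, and whether this lowered the levels of the first 3 was not tested.

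Gabarap, at chr11:69991143-69994951 on the plus strand of GRCm38, had 224, 244, 235 and 246 TPM in replicates 1 to 4. Gabarapl2, which also acts in Golgi transport, lies at chr8:111940703-111953612 and had 39.2, 39.6, 36.9 and 39.4 TPM. Gabarapl1, at chr6:129533160-129542346, had 3.08, 2.83, 2.98 and 4.35 TPM from 45, 100, 40 and 157 fragments. Among the protein-coding genes at 1 TPM or more in all libraries, Gabarap stood at percentile 93.8, Gabarapl2 at 54.7 and Gabarapl1 at 7.25, so the GABARAP branch runs over most of the expressed range. In the LC3 branch, Map1lc3b, which codes for the protein most used to mark autophagosomes, lies at chr8:121590361-121598760 and had 44.4, 42.8, 43.4 and 43.0 TPM. Map1lc3a, at chr2:155276297-155278073, had 6.88, 8.26, 12.3 and 8.93 TPM. The order Gabarap, Map1lc3b, Gabarapl2, Map1lc3a and Gabarapl1 held in every library. Its closest pair with all exons was Map1lc3b and Gabarapl2, whose means differed 1.12-fold without overlap, but with principal transcripts these were at 89.3 ± 1.54 TPM and 37.3 ± 1.24 TPM.

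Gabarap made up 71.5% ± 0.811 of the ATG8 transcripts, Map1lc3b 13.1% ± 0.637, Gabarapl2 11.7% ± 0.488, Map1lc3a 2.74% ± 0.685 and Gabarapl1 0.995% ± 0.192. The GABARAP branch together held 83.9%, 84.9%, 83.1% and 84.8% in replicates 1 to 4, a spread of less than 2 percentage points. On the log2 scale of TPM plus 0.1, the GABARAP branch exceeded the LC3 branch by 2.41 ± 0.09 (5.31-fold) and Gabarap exceeded Map1lc3b by 2.45 ± 0.08 (5.45-fold), both in 4 of 4 libraries. With the exact two-sided sign-flip permutation test over libraries, each of the 11 ratios tested between paralogs or alternative partners gave a p of 2 of 16 sign patterns, which Benjamini-Hochberg adjustment over the 11 left as it was. That is the smallest p that 4 libraries can give, so no ratio here could pass 0.05, and each is described by its size, its SD and the number of libraries on its side. The size of the branch difference rested on the length used. The difference was 1.46 with principal transcripts, under which the GABARAP branch held 73.3% of ATG8 transcripts, and 0.66 with no length correction, under which it held 61.3% of ATG8 fragments. Gabarap stood above Map1lc3b by 1.33 and 0.42 under those alternatives. Within the LC3 branch Map1lc3b exceeded Map1lc3a by 2.27 ± 0.36 (4.84-fold), and by 3.75 with principal transcripts. Within the GABARAP branch Gabarapl2 exceeded Gabarapl1 by 3.53 ± 0.26 (11.6-fold), a ratio that length barely touched, at 3.84 with principal transcripts.

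**Figure D3:**
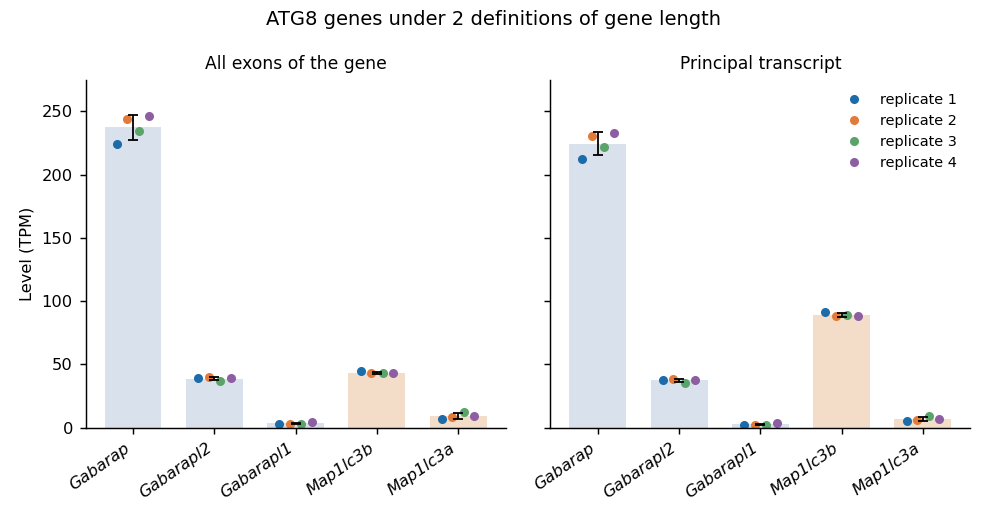
Level of the 5 ATG8 genes in TPM with the length over all exons (left) and over the principal transcript (right). Bars are means over 4 libraries, error bars are SD and points are libraries, with the GABARAP branch in blue and the LC3 branch in orange. Gabarap is highest in both panels and Map1lc3b is 43.4 TPM at left and 89.3 TPM at right.

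The cargo receptors had the highest summed level of the steps into which the 38 genes fall, at 444 ± 4.10 TPM. They carry an LC3-interacting motif on one side and bind ubiquitin or other marks on the other. Sqstm1 codes for p62, which gathers ubiquitin-tagged protein into condensates and is itself degraded by autophagy, and its gene lies at chr11:50199366-50210827 on the minus strand. It had 239, 234, 235 and 243 TPM in replicates 1 to 4, with a coefficient of variation (SD over mean) of 1.89%. Its level could not be told from that of Gabarap, with a ratio of Gabarap to Sqstm1 of 0.999 ± 0.0440 and Sqstm1 the higher of the pair in 1 of 4 libraries, although the principal transcript levels were 225 ± 9.37 TPM for Gabarap and 271 ± 5.13 TPM for Sqstm1. Nbr1, a receptor that works with p62 on ubiquitin-tagged aggregates, had 84.6, 85.2, 80.7 and 79.2 TPM. Sqstm1 exceeded Nbr1 by 1.53 ± 0.07 on the log2 scale (2.88-fold) in 4 of 4 libraries, and by 1.73 with principal transcripts and 0.49 with no length correction. Tax1bp1, a receptor that brings the kinase complex to cargo and restrains NF-kB signalling, had 59.1, 68.3, 60.9 and 59.3 TPM. Its mean was 61.9 ± 4.38 TPM with all exons and 130.5 ± 9.20 TPM with the principal transcript. The second value would place it above Nbr1, but it is too high if fragments lay outside that transcript. Calcoco1, an adaptor linked to turnover of the endoplasmic reticulum and Golgi, had 63.0, 59.2, 61.9 and 58.8 TPM. Of the summed level of the 5 receptors, Sqstm1 held 53.6% ± 1.14, Nbr1 18.6% ± 0.518, Tax1bp1 14.0% ± 0.936 and Calcoco1 13.7% ± 0.479.

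Optn was the exception in this step. It codes for optineurin, a receptor in the removal of damaged mitochondria and of bacteria, at chr2:5020642-5064051 on the minus strand. It had 1.28, 0.563, 0.639 and 1.20 TPM in replicates 1 to 4, from 35, 37, 16 and 81 fragments, so replicates 1 and 4 were high and replicates 2 and 3 low. Sqstm1 was 293 ± 116 times as high, and Optn held 0.208% ± 0.0838 of receptor transcripts. Its coefficient of variation was 40.6%, the highest of the 38, where counting error alone gives 17.4%. The summed B cell markers were 299, 170.1, 178 and 77.3 TPM in the same libraries, so that the libraries high in Optn were the highest and the lowest in those markers, and the summed macrophage and dendritic cell markers were between 17.7 and 22.1 TPM. Whether any other cell type contributed to Optn was not tested.

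At the first step, the 4 genes of the initiation complex ran from 19.98 TPM for the scaffold to 71.6 TPM for Atg101 by mean level with all exons. Atg13, the regulatory subunit that links the kinase to its scaffold, had 65.8, 68.9, 65.9 and 59.2 TPM. Atg101, which binds and stabilises ATG13, had 61.6, 65.4, 81.9 and 77.5 TPM. The pair stood at nearly equal levels, but their ratio of Atg101 to Atg13 was 0.935 and 0.948 in replicates 1 and 2 and 1.24 and 1.31 in replicates 3 and 4, so that the order of the pair switched between libraries. With principal transcripts Atg13 was at 55.4 ± 3.51 TPM and Atg101 at 48.0 ± 6.46 TPM. The Atg101 transcript is slightly longer than its counted exons, at 1270 against 1230 bases, which lowers its value a little. Ulk2, one of the kinases, had 35.6, 42.3, 39.4 and 37.3 TPM. Rb1cc1, the large scaffold FIP200, had 19.8, 21.2, 20.03 and 18.9 TPM, below Ulk2 in every library with all exons. With principal transcripts the levels were 26.7 ± 1.25 TPM for Rb1cc1 and 27.9 ± 2.07 TPM for Ulk2, closer than their spread, so which gene of this step was lowest depends on the length. Atg13 stood at 3.25 ± 0.0879 times the level of Rb1cc1, a ratio whose range over libraries was 3.13 to 3.33, and at 55.4 against 26.7 TPM with principal transcripts.

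The lipid kinase step had a core of 3 subunits shared by all its forms and adaptors that differ between forms. Pik3c3, the catalytic subunit VPS34, had 50.8, 54.4, 49.7 and 50.7 TPM. Pik3r4, its membrane-bound partner VPS15, had 24.4, 24.7, 23.7 and 23.2 TPM, the lowest mean of the step with all exons. Becn1, the scaffold Beclin 1 that is held in check by BCL2, had 74.3, 76.7, 75.7 and 74.5 TPM. Becn1 had the smallest spread of the 38 genes, with a coefficient of variation of 1.51%. Becn1 was 1.47 ± 0.0465 times as high as Pik3c3, and Pik3c3 was 2.14 ± 0.0630 times as high as Pik3r4, ratios that varied little between libraries. With principal transcripts the levels were 84.5 ± 1.25 TPM for Becn1, 48.9 ± 1.97 TPM for Pik3c3 and 33.8 ± 0.972 TPM for Pik3r4, which keeps their order. Of the Becn1 words, 31.1% also occurred in Cntd1 on either strand, with no exon overlap on the same strand. Atg14, the adaptor of the form that starts autophagosomes, had 23.8, 28.0, 21.3 and 23.6 TPM. Uvrag, the adaptor of the form that acts on endosomes, had 26.1, 28.6, 25.2 and 26.5 TPM. Uvrag exceeded Atg14 by 0.14 ± 0.09 on the log2 scale (1.11-fold) in 4 of 4 libraries although their ranges overlapped. The difference was 1.06 with principal transcripts and 1.53 with no length correction, so that only the direction was shared by the length definitions. The principal transcript of Atg14 is longer than its counted exons, at 3729 against 3450 bases, which adds to the value of 1.06. Ambra1, which links Beclin 1 to the ubiquitin ligase machinery, was the highest gene of the step with all exons at 85.3, 86.4, 79.7 and 80.8 TPM, but stood below Becn1 with principal transcripts, at 67.7 ± 2.71 TPM.

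In the step of membrane supply, both ATG2 lipid-transfer genes were expressed. Atg2b had 46.8, 46.5, 43.9 and 43.9 TPM, and Atg2a had 80.7, 70.3, 67.0 and 70.6 TPM. Atg2b was lower than Atg2a by a log2 ratio of -0.67 ± 0.09 in 4 of 4 libraries, with Atg2a 1.59-fold higher, and the log2 ratio was -0.51 with principal transcripts and -0.27 with no length correction. Atg9a, the scramblase carried on the seed vesicles, had 21.5, 20.2, 19.4 and 19.5 TPM. Its exons overlap those of Gm29253 on the same strand over 31.8% of their bases, and fragments there were not assigned to either gene, so its level is uncertain. Vmp1, a scramblase of the endoplasmic reticulum that releases the growing membrane, had 26.8, 32.1, 28.4 and 29.6 TPM.

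Of the readers of phosphatidylinositol 3-phosphate among the 38 genes, Wipi2 and Wdr45 were expressed and Wipi1 was near 0. Wdr45b, a further reader outside the 38, was at 31.3 ± 1.17 TPM. Wipi2, the reader that recruits ATG16L1, lies at chr5:142627698-142670588 and had 34.9, 33.9, 33.6 and 33.8 TPM. Wipi1, its paralog at chr11:109573331-109611967 on the minus strand, had 0.219, 0.207, 0.170 and 0.266 TPM from 7, 16, 5 and 21 fragments. Wipi1 was the lowest of the 38 genes in every library. Wipi2 exceeded Wipi1 by 6.77 ± 0.18 on the log2 scale (109-fold) in 4 of 4 libraries, and by 8.25 with principal transcripts and 4.85 when 1 in place of 0.1 TPM was added, so that the size is set in part by the value added to so low a level. Wdr45, which codes for the reader WIPI4 that binds ATG2, had 36.3, 31.6, 34.0 and 32.1 TPM. It shares 24.7% of its exon bases with Gm45208 on the same strand, where fragments were left uncounted. Its ranges and those of Wipi2 overlapped with all exons, while the principal transcript levels were 47.8 ± 3.08 TPM for Wdr45 and 127 ± 2.17 TPM for Wipi2.

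**Figure D4:**
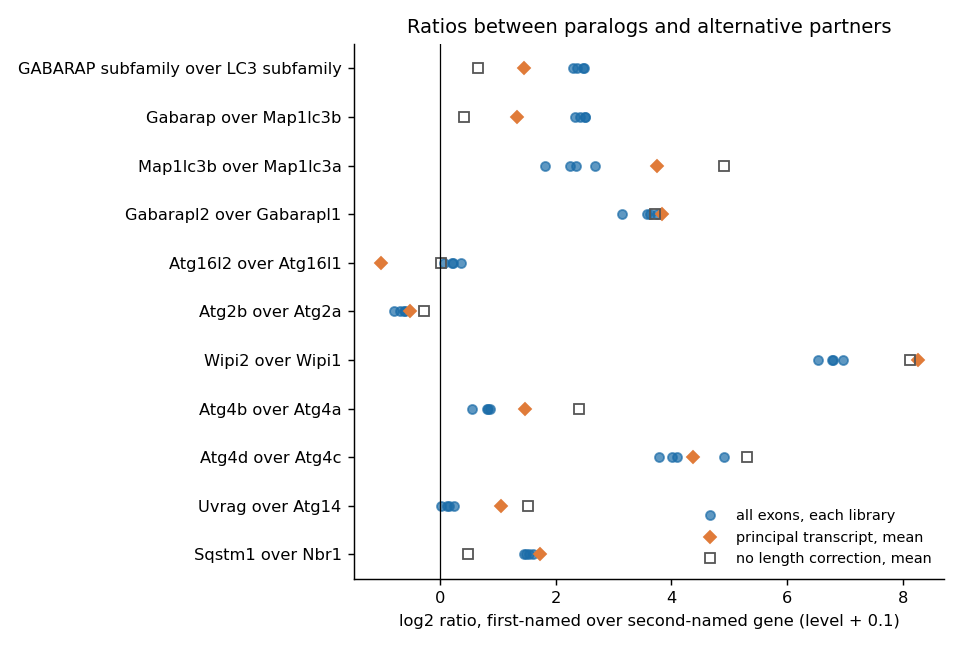
Within-library log2 ratios of TPM plus 0.1 for the 11 ratios between paralogs or alternative partners. Blue points are the 4 libraries with the length over all exons, orange diamonds are the mean with principal transcripts and open squares the mean with no length correction. The 4 libraries lie on 1 side of 0 for every ratio, and only Atg16l2 over Atg16l1 has its diamond on the other side, at -1.01.

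The conjugation enzymes form a chain in which ATG7 activates both ATG12 and ATG8, ATG10 passes ATG12 to ATG5, and ATG3 passes ATG8 to lipid at the place set by ATG16L1. The enzymes at the head of the chain were its lowest members. Atg7, the common activating enzyme, had 10.1, 10.1, 11.6 and 10.4 TPM. Atg10, which works on ATG12, had 7.44, 8.16, 10.5 and 10.4 TPM. Atg3, which works on ATG8, had 47.8, 57.3, 55.6 and 55.6 TPM. Atg3 was 6.02 ± 0.848 times as high as Atg10, between 5.29 and 7.03 times, and stood at 57.5 ± 4.47 TPM against 6.43 ± 1.09 TPM with principal transcripts. The products of the chain were higher. Atg12, the ubiquitin-like protein, had 62.4, 71.7, 64.3 and 62.01 TPM. Atg5, to which it is joined, had 45.7, 48.9, 48.0 and 43.9 TPM. The ratio of Atg12 to Atg5 was 1.396 ± 0.0552 with all exons, whereas their principal transcript levels were 23.6 ± 1.62 TPM and 32.3 ± 1.59 TPM, but the Atg12 value is low by construction, since its fragments were counted over 2492 bases and divided by a transcript of 4765.

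Atg16l2 and Atg16l1 code for alternative partners of the ATG12 and ATG5 conjugate, of which ATG16L1 is the one known to be required for lipid coupling. Atg16l2, at chr7:101263034-101302251 on the minus strand, had 37.1, 30.4, 31.0 and 33.6 TPM. Atg16l1, at chr1:87755870-87792428 on the plus strand, had 28.9, 28.8, 26.8 and 28.7 TPM. The ranges did not overlap, and Atg16l2 exceeded Atg16l1 by 0.22 ± 0.12 on the log2 scale (1.16-fold) in 4 of 4 libraries. With principal transcripts the log2 ratio was -1.01, with Atg16l2 at 30.0 ± 2.81 TPM and Atg16l1 at 60.4 ± 2.14 TPM, and with no length correction it was 0.03 (p = 0.625 by the exact sign-flip test). These data therefore give no order for the pair, only that both were expressed.

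Of the 4 ATG4 proteases, 3 were expressed and Atg4c was near the floor. Atg4b, which codes for the protease that acts most broadly on ATG8 proteins, had 30.1, 29.3, 31.1 and 30.3 TPM. Atg4d, known for removing ATG8 from lipid, had 32.4, 27.0, 30.6 and 28.4 TPM. These 2 genes overlapped in level, and held 38.2% ± 0.659 and 37.4% ± 2.43 of the ATG4 transcripts, but with principal transcripts Atg4b was at 41.5 ± 1.02 TPM and Atg4d at 25.0 ± 2.02 TPM. Atg4a, a protease with a preference for the GABARAP branch, had 16.5, 19.9, 17.5 and 17.2 TPM, or 22.5% ± 2.16 of the ATG4 transcripts. Of its sampled words 54.0% occurred in other genes, most of them in Atg4a-ps, so fragments may be missing from its count. Atg4b exceeded Atg4a by 0.76 ± 0.14 on the log2 scale (1.70-fold) in 4 of 4 libraries, by 1.48 with principal transcripts and by 2.40 with no length correction. Atg4c had 0.986, 1.58, 1.70 and 1.97 TPM from 24, 93, 38 and 118 fragments, and its lowest library was the only one under 1 TPM. Atg4d exceeded Atg4c by 4.20 ± 0.49 (18.4-fold) in 4 of 4 libraries, by 4.38 with principal transcripts, by 5.31 with no length correction and by 3.59 when 1 TPM was added in place of 0.1.

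The libraries differed little in these genes. The coefficient of variation of TPM had a median of 5.42% over the 35 genes at 1 TPM or more, with a range of 1.51% to 25.4%, set against a median of 6.73% over the 9948 protein-coding genes at the same level. It was under 10% for 30 of the 35 (85.7%), against 76.4% of the protein-coding genes. Counting error alone gives a median of 2.02% for the autophagy genes and 2.66% for the protein-coding genes at their counts. Of all 38, the 6 genes with the most spread were the 6 with the fewest fragments, 729 or fewer over the 4 libraries, which were Optn at 40.6%, Atg4c at 26.5%, Map1lc3a at 25.4%, Gabarapl1 at 21.2%, Wipi1 at 18.4% and Atg10 at 17.1%. Summed by step, the highest library exceeded the lowest by 1.13-fold in the initiation complex, 1.09-fold in the lipid kinase complexes, 1.09-fold in membrane supply and readers, 1.07-fold in conjugation, 1.04-fold in the ATG4 proteases, 1.08-fold in the ATG8 proteins and 1.02-fold in the cargo receptors.

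In a test of whether a gene varied between libraries more than other genes of its abundance (edgeR, residual deviance at the trended dispersion), 142 of 12554 genes were called at a Benjamini-Hochberg adjusted p under 0.05, or 1.13%. Among the autophagy genes 37 passed the filter on low counts, which removed Wipi1, and 0 were called. With the size factors and dispersion trend of DESeq2 put into the same edgeR test, 0 of them were called. An unadjusted p under 0.05 was given by edgeR to 1 of the 37 genes and to 5.23% of all genes. That gene was Atg101, with an unadjusted p of 0.0229 and an adjusted p of 0.640 in edgeR. It was lower in replicates 1 and 2, at 61.6 and 65.4 TPM, than in replicates 3 and 4, at 81.9 and 77.5 TPM. With a common dispersion in place of the trend, 1 gene was called, which was Optn at an adjusted p of 0.0268, while 2.80% of all genes were called there. Optn had an adjusted p of 0.961 under the trended dispersion in edgeR. A p above the threshold does not show that these levels were equal in the 4 libraries, and the p-values measure only the spread between samples with 1 donor record, which may be technical.

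**Figure D5:**
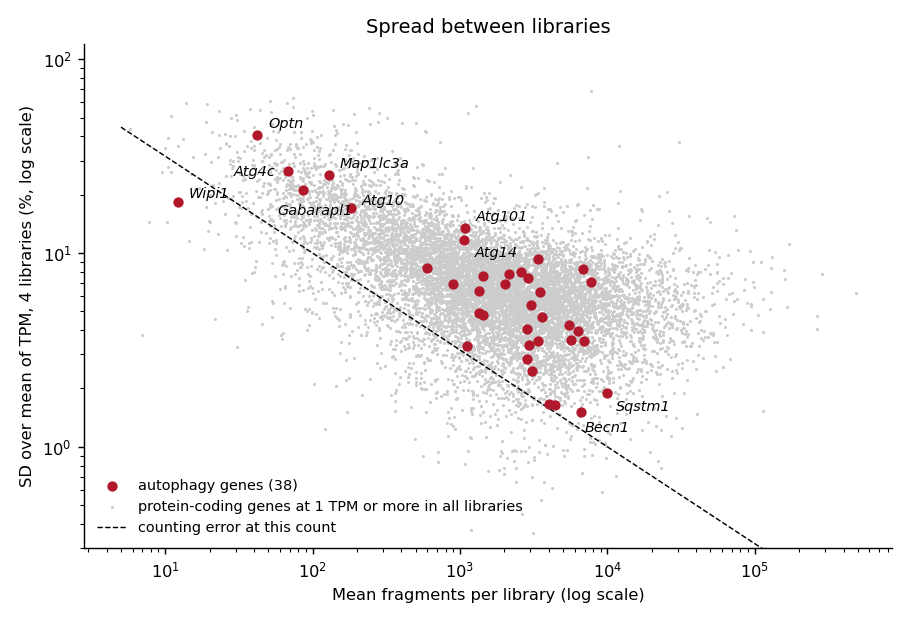
Coefficient of variation of TPM over the 4 libraries in percent (vertical axis, log scale) against the mean number of fragments per library (horizontal axis, log scale). Red points are the 38 autophagy genes, grey points the 9948 protein-coding genes at 1 TPM or more in all libraries, and the dashed line is the counting error. The autophagy genes lie inside or at the edge of the grey cloud, with Becn1 and Sqstm1 near its lower edge and the 5 genes with the fewest fragments, among them Optn and Wipi1, at upper left.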

How the data were processed

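RNA-seq was measured in 4 libraries labelled regulatory T cell, grouped and numbered by the labels. The authors deposited unnormalized counts of fragments for each gene, made, per the file headers, with featureCounts 1.4.6-p4 on exons of GENCODE M13 genes on mm10, from paired reads with both ends aligned and strand setting 2 (reverse-stranded). No option for fragments with several alignments or over several genes was set, so those were left out, and near-identical or overlapping genes are undercounted. The aligned reads were named for STAR, per the file headers.

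Here, gene identifiers without version were matched to GENCODE M21 (50376 of 50600 genes), and TPM was computed by dividing counts by the deposited exon lengths and scaling to a common total. Detection means 1 TPM or more in all libraries. Depth ran from 23000465 to 62090744 counts, which sets the counting errors given. Ratios used log2(TPM + 0.1) and an exact two-sided sign-flip test over libraries (smallest p, 2 of 16 sign patterns), adjusted by Benjamini-Hochberg over 11 ratios. Variability between libraries used edgeR 4.0.16 in R 4.3.3 (filterByExpr, TMM, intercept-only design, residual deviance at the trended dispersion, adjusted p of 0.05 over all genes tested). An alternative put the size factors and dispersion trend of DESeq2 1.42.0 into the same test. That step was tested on simulated data with known answers, in which each changed gene differed in a single library. It called 143 of the 198 changed genes that were tested and 2 unchanged genes, so it misses some such changes. The simulated counts were drawn at the trended dispersion that the test itself assumes. The number of unchanged genes called therefore cannot show how often real genes are called wrongly. Sequence sharing is how many 50-base words, taken at every 10th position of the M21 transcripts of a gene, recur in another gene in either orientation. Coding ends were read from M21 transcripts on GRCm38. Coordinates are 1-based. Python 3.11.15, numpy 2.4.6, pandas 2.3.3, scipy 1.17.1 and matplotlib 3.10.9 were used.

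All 38 autophagy genes were named. Of 4 other autophagy lists the 3 highest and 2 lowest genes by mean TPM were named, and of each marker list the highest and lowest. Foxp3, Cd8a and Wdr45b were named besides, after their values were seen. 1 gene that these rules include is not reported here by name, though it stayed in its list's counts and median. The genes and lists were chosen with earlier results of these data known. Alternatives changed thresholds, normalization, filters, dispersion, pseudocount and length, and left out each library in turn. The principal transcript length was added after the data were seen, with TPM scaled again to a common total.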

Additional observations from a re-analysis of the deposited data

Results flagged for a closer look

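In 57 sets of 4 values (the TPM of each gene and the tested ratios and summaries), 1 library stood apart from the other 3 in 4 sets, by a gap over range above Dixon's critical value for 4 samples. Chance flags about 1 in 20 such sets. Atg16l1 was at 26.8 TPM in replicate 3 and at 28.7 to 28.9 TPM in the others. Gabarapl1 was at 4.35 TPM in replicate 4, from 157 fragments, and at 2.83 to 3.08 TPM in the others. Gabarapl2 was at 36.9 TPM in replicate 3 and at 39.2 to 39.6 TPM in the others. The log2 ratio of Atg4b over Atg4a was 0.55 in replicate 2 and 0.82 to 0.86 in the others. None of these 3 genes, nor Atg4b or Atg4a, was called variable between libraries by edgeR at an adjusted p of 0.05. The same held when edgeR was given the dispersion trend of DESeq2.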

How the results depend on the processing

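Of 77 ratio values under alternatives, 76 kept their direction, among them all 44 with a library left out. The exception was Atg16l2 over Atg16l1, at -1.01 with the principal transcript length against 0.22 with all exons. The GABARAP branch share of ATG8 transcripts was 84.2% as reported, 73.3% with the principal transcript length and 61.3% of counts with no length correction. Without 1 library it was between 83.9% and 84.5%. The median over the 38 genes was 34.1 TPM as reported, 9.78 on the scale of TMM-scaled RPKM, which divides by counts and not by summed rates, 38.2 TPM over protein-coding genes other than mitochondrial ones, where the total is smaller, and 35.5 TPM with the principal transcript length. The count of autophagy genes at the detection threshold was 34 to 37 under every alternative run. The count called variable was 0, and 1 (Optn) with a common dispersion. The square root of the common dispersion was 0.0849, against 0.211 on the trend at the abundance of Optn. What caused the spread of Optn was not tested. The count called was 0 with RLE size factors, with no filter, with DESeq2's dispersion trend and without each library. With 3 libraries the smallest sign-flip p is 0.25. Depth limits Wipi1, Optn, Atg4c and Gabarapl1, which had 49, 169, 273 and 342 fragments in all.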

Other observations

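Other genes of the pathway, from 4 lists that hold none of the 38, were also broadly expressed. For comparison, 45.7% of all protein-coding genes were at 1 TPM or more in all libraries, and those had a median of 33.2 ± 0.685 TPM. The list medians below are over all genes of a list, detected or not. All 15 genes of autophagosome tethering and fusion were at 1 TPM or more in all libraries, with a median of 62.01 ± 2.10 TPM. The highest were Tecpr1, a tether that binds the ATG12 and ATG5 conjugate, at 274 ± 21.8 TPM, the late endosome GTPase Rab7 at 204 ± 6.80 TPM and the HOPS and CORVET subunit Vps16 at 172 ± 6.04 TPM. The lowest were Vps18, another subunit of those complexes, at 17.4 ± 1.30 TPM and the SNARE gene Stx7 at 13.2 ± 0.590 TPM. Of 20 receptors for mitochondria and other organelles 18 were detected, with a median of 45.5 ± 2.98 TPM. Fkbp8, a mitochondrial receptor, was at 276 ± 15.6 TPM. Pink1, the kinase that marks damaged mitochondria, was at 173 ± 22.1 TPM. Retreg1, a receptor for the endoplasmic reticulum, was at 165 ± 7.14 TPM, and the large adaptor gene Wdfy3 was at 0.0149 ± 0.00537 TPM.

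Of 12 genes in a mixed list of regulators of the lipid kinase complexes and other pathway genes, 10 were detected. Their list had a median of 20.9 ± 0.687 TPM. Bcl2, which binds Beclin 1, was at 93.5 ± 3.63 TPM, Smcr8, a partner of C9ORF72, at 61.9 ± 3.98 TPM and Sh3glb1 at 41.0 ± 2.24 TPM. Nrbp2 was at 0.343 ± 0.187 TPM. Rubcnl, which codes for Pacer, had 1.19, 0.474, 0.452 and 0.147 TPM in replicates 1 to 4. The 12 B cell markers, of which none was at 0 in all libraries, summed to 299, 170.1, 178 and 77.3 TPM in the same libraries, and their part in the Rubcnl level was not tested. Of 10 transcription factors of autophagy and lysosome genes 9 were detected, with a median of 47.5 ± 1.39 TPM. Atf4, the stress response factor, was at 301 ± 13.2 TPM, Foxo1 at 178 ± 9.55 TPM and Foxo4 at 63.3 ± 1.71 TPM. Mitf was at 1.51 ± 0.168 TPM. Tfec had 0 fragments in every library, where 3 fragments would have given up to 0.0803 TPM, an upper limit that covers counting error only.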
